A study of Mus musculus with 12 samples.

Results

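Primary keratinocyte cultures from newborn mice of 2 genetic backgrounds were compared on Affymetrix mouse arrays. On one side stood the 2 cultures labelled as a mix of C57, DBA and FVB, and on the other the 3 cultures labelled FVB, 5 of the 12 arrays of the series. Members were chosen by these strain labels and by no measured value. Every culture held cells pooled from 5 newborn animals of like genotype and was kept, unpassaged, at low calcium for no more than 3 days. The labels name no transgene, deletion or treatment. The other 7 arrays hold whole skin, 5 from mixed-strain mice aged 30 days and 2 from FVB newborns, so that strain and age coincide there. The series was designed to set tissue against culture and newborn against adult animals. Strain within culture is a difference that its labels give beside those 2 questions.

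Keratinocytes taken from newborn mouse epidermis and kept in low calcium stay attached, divide and carry the keratins of the basal layer, Krt5 and Krt14, while the spinous and cornified programmes that begin with Krt1 and Krt10 remain low. Such preparations also take along melanocytes, which sit at the base of the epidermis and in hair follicles of newborn mice, and some dermal fibroblasts and immune cells. FVB mice are albino through a missense allele of Tyr, the gene of the enzyme that starts melanin synthesis. DBA mice carry the brown allele of Tyrp1 and the dilute allele of Myo5a. Which alleles the mixed-strain pups held at these loci was not analysed here. In an array of a whole culture, more cells of a type and more RNA of a gene in each cell cannot be told apart, and this holds for all values below.

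Values are the deposited log2 values, so that a difference of 1 is a 2-fold change. Differences are mixed-strain minus FVB cultures, each with its standard error from limma, and a gene was called where its p, adjusted over all 12393 genes, was under 0.05. Of these genes 1863 were called, which is 15.0%. Among them 639 were higher in the mixed-strain cultures (5.16% of genes tested) and 1224 were lower (9.88%). At least 2-fold and called were 77 higher genes (0.621%) and 81 lower genes (0.654%). Counts of called list members below are to be read beside the 5.16% higher and 9.88% lower of all genes. No list was tested as a set. The median difference of all genes was -0.009. The 2 sets of cultures did not overlap for 5683 genes, which is 45.9%, of which 2530 (20.4%) were higher and 3153 (25.4%) lower in the mixed-strain cultures.

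The split of calls moved with the scaling. Higher genes were 34.3% of calls in the deposited values, 45.8% after quantile normalisation was repeated on the 5 cultures, and 46.2% with each array centred on 26 desmosome and tight junction genes. These 26 include Gjb2, among the largest differences named below, and their mean difference was -0.05 with a median of -0.01. The mixed-strain cultures lay closest together of all pairs of cultures, with an SD of their log2 difference over genes of 0.156 and 1 gene more than 2-fold apart. The pairs of FVB cultures had SDs of 0.214 to 0.267 and 3 to 7 such genes, and pairs across strains 0.340 to 0.397 and 171 to 256. The labels do not say that the 2 mixed-strain arrays came from separate litters or days, and the p-values then rest in part on a spread that may be no more than technical. The other part comes from the FVB cultures. With the 2 mixed-strain arrays averaged to 1 sample, 559 genes were called (4.51%), 201 higher and 358 lower, and all 559 were among the 1863. Without mixed-strain culture 1 the count was 546, without mixed-strain culture 2 it was 692, and without FVB culture 5, which stood apart from the other FVB cultures, it was 3004.

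Readings of the array's actin and Gapdh RNA controls differed between the 2 sets of cultures. The actin control probe sets for the 3' end exceeded those for the 5' end by 0.21 and 0.35 in the mixed-strain cultures and by 0.56, 0.74 and 0.61 in the FVB cultures. The same difference for Gapdh was -0.19 and -0.07 against 0.04, 0.33 and 0.21. Readings of both controls did not overlap between strains, which also held for 45.9% of all genes tested. The 18S ribosomal RNA controls did overlap. Their 3' probe set read 6.35 and 6.41 in the mixed-strain and 6.35, 6.28 and 7.16 in the FVB cultures, highest in FVB culture 5. Their part in the results was not tested.

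The cultures had the markers of keratinocytes. Krt5, a keratin of basal cells, read 13.02 and 13.11 in the mixed-strain and 13.06, 13.13 and 13.38 in the FVB cultures. Krt14, its partner, read 13.25 and 13.29 against 13.44 in each FVB culture. Neither passed the test, with differences of -0.12 ± 0.13 (adjusted p = 0.572) and -0.17 ± 0.11 (adjusted p = 0.358) on the probe sets used. Krt14 has 3 probe sets, of which another bright one differed by -0.067 and a dim one, at 5.94 and 5.98 against 6.90, 7.09 and 6.91, was called lower (-1.006 ± 0.12). The mean level of the 15 keratinocyte identity genes measured was 9.996 and 10.007 in the mixed-strain and 10.32 to 10.36 in the FVB cultures. Cultures of both sides thus carried the markers of the cell type on their label.

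The largest differences were at single genes on both sides. D17H6S56E-5 read 11.10 and 11.16 in the mixed-strain cultures and 7.36, 7.60 and 7.38 in the FVB cultures. That is a difference of 3.69 ± 0.12, or 12.9-fold (adjusted p = 2.49e-09). Rpgrip1, a protein of the photoreceptor cilium, followed at 2.84 ± 0.13. Il1a, Il33, the 4 pigment genes Tyrp1, Dct, Pmel and Tyr, the membrane proteolipid Mal (2.02 ± 0.12) and Tnfrsf23, a decoy receptor for TRAIL (1.94 ± 0.14), completed the 10 highest. In the other direction Gdpd3, a phospholipase of lysophospholipids, read 5.33 and 5.42 against 7.95, 7.93 and 7.82, a difference of -2.52 ± 0.12 (adjusted p = 5.64e-08). Krt1 (-2.29), the neural adhesion molecule Chl1 (-2.24), the connexin gene Gjb2 (-2.23), the secreted matrix protein Spon2 (-2.19) and the transcription factor Sox11 (-2.08) came next. Porcn, the acyltransferase that lipidates Wnt proteins (-1.92), Eva1a (-1.87), the matrix protein Tgfbi (-1.87) and the secreted protein Wfdc18 (-1.82) completed the 10 lowest. These 20 were picked for size and lack of overlap on the same 5 arrays, so refits of those arrays are no separate support. All 20 were called with the mixed-strain arrays averaged and in each of the 5 fits that left out a culture.

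Pigment genes were higher in the mixed-strain cultures. Melanin is made in melanosomes by Tyr and 2 related enzymes, Tyrp1 and Dct, on fibrils of the protein Pmel, and the transcription factor Mitf drives these genes in melanocytes. The promoters of the 3 enzyme genes are shown because they are among the members with the largest differences and because Mitf is known to bind the letters CATGTG there. The windows run from 250 bases before to 50 bases after the start of each gene in RefSeq (build GRCm38.p6), 5′ to 3′ on the gene's strand. Capitals mark CATGTG or its reverse complement. They lie at chr7:87493463-87493762 (minus strand), chr4:80833963-80834262 (plus strand) and chr14:118052197-118052496 (minus strand).
Tyr: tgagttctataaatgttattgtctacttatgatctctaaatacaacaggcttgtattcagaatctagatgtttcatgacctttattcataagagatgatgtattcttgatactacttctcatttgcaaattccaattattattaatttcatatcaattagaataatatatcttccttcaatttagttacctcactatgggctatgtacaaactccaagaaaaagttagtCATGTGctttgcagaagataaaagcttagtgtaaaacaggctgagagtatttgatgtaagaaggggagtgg
Tyrp1: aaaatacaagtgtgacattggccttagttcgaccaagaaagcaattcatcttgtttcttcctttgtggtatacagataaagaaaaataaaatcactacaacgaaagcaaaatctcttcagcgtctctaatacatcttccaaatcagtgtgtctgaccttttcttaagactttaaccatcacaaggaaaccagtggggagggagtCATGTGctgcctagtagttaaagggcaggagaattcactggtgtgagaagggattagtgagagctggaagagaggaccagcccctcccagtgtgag
Dct: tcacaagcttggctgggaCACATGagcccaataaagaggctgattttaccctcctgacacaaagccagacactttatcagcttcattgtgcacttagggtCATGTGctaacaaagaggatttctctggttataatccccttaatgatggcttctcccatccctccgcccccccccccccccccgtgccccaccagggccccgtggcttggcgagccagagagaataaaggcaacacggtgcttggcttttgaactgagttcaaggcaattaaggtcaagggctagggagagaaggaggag

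The windows of Tyr and Tyrp1 held CATGTG 1 time each and that of Dct 2 times, both strands counted. Of 32851 RefSeq windows of this length, 14.2% held these letters, and 7.15% held the related palindrome CACGTG, which none of the 3 windows had. Of the 12 pigment genes that were higher, 9 had a window and 4 of those held CATGTG. Of the 13 that were not called, 10 had a window and 5 held it. A match in a window is a description of its letters, and no binding was measured in these samples.

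Tyrp1 read 10.55 and 10.41 in the mixed-strain cultures and 8.25, 8.01 and 8.33 in the FVB cultures, 2.29 ± 0.13 higher or 4.88-fold (adjusted p = 5.2e-07). Dct, the dopachrome tautomerase, read 10.46 and 10.41 against 8.47, 8.27 and 8.11, 2.15 ± 0.13 higher. Pmel read 10.56 and 10.51 against 8.66, 8.59 and 8.45, 1.97 ± 0.12 higher. In each of these genes the lowest mixed-strain value lay more than 1.7 above the highest FVB value. Tyr read 7.65 and 7.32 against 5.68, 5.44 and 5.57, 1.92 ± 0.13 higher (adjusted p = 1.75e-06). Mitf read 7.75 and 7.60 against 6.82, 6.84 and 6.77, a difference of 0.86 ± 0.12 (adjusted p = 0.000358). The FVB cultures thus had readings of the pigment genes too, at a lower level.

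**Figure D1:**
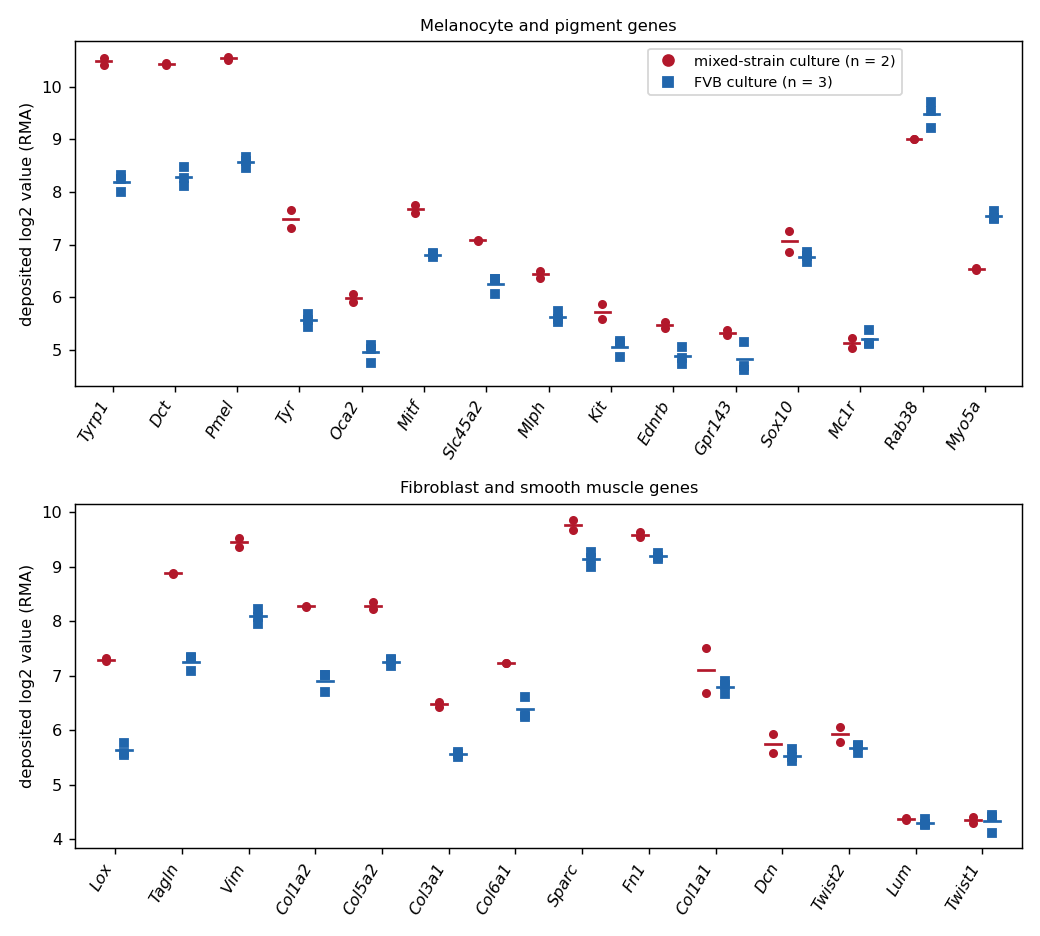
Deposited log2 values of 15 pigment genes (upper panel) and 14 fibroblast and smooth muscle genes (lower panel) in the 2 mixed-strain cultures (red circles) and the 3 FVB cultures (blue squares), with short bars for the means. Tyrp1, Dct, Pmel and Tyr stand apart by 1.92 to 2.29, while Sox10, Mc1r, Lum and Twist1 overlap or nearly meet, and Myo5a and Rab38 are lower in the mixed-strain cultures.

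Of 27 genes measured in the melanocyte and pigment list, 12 were higher, 2 lower and 13 not called, with a median of 0.35 beside -0.009 over all genes. The mean level of the list was 6.84 in both mixed-strain cultures and 6.23 to 6.30 in the FVB cultures. Besides the genes above, the receptor kinase Met (1.32 ± 0.21), Oca2 (1.03), the melanosome transporter Slc45a2 (0.82), the transport adaptor Mlph (0.82), the endothelin receptor Ednrb (0.60) and Gpr143 (0.51) were higher. Met is also a gene of keratinocytes and other epithelia. Kit, the stem cell factor receptor of melanocytes and mast cells, read 5.59 and 5.87 against 4.86, 5.17 and 5.13, 0.68 ± 0.14 higher (adjusted p = 0.00495). Kit was not called with the mixed-strain arrays averaged (adjusted p = 0.0571), with all 12 arrays in 1 fit (adjusted p = 0.065) or without mixed-strain culture 2. The list had 9 higher genes with the mixed-strain arrays averaged and 9 to 14 in the 5 fits without a culture.

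Not all pigment genes followed. Myo5a, the motor that carries melanosomes, read 6.56 and 6.52 against 7.64, 7.49 and 7.50, a difference of -0.999 ± 0.12 (adjusted p = 0.000123). Rab38, which sorts enzymes to melanosomes, was 0.48 ± 0.14 lower (adjusted p = 0.0373), and this was not called with the arrays averaged, with all 12 arrays in 1 fit, or without FVB culture 4 or either mixed-strain culture. Sox10, a transcription factor of the melanocyte lineage and of Schwann cells, read 6.86 and 7.27 against 6.66, 6.78 and 6.86 (0.30 ± 0.14, adjusted p = 0.179). Mc1r, the melanocortin receptor, differed by -0.08. Of 11 genes of melanosome transport and sorting, 1 was higher and 3 were lower, with a median of 0.06, and none was called with the mixed-strain arrays averaged. Rab32 was the higher one (0.55 ± 0.11) and Dtnbp1 the lowest (-0.57 ± 0.13). Of 12 genes of Schwann cells and nerves, 2 were higher, Mal and Pmp22 (0.84), and 2 were lower, Egr2 (-1.59) and Pou3f1 (-0.97).

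Genes of fibroblasts and collagen were higher in the mixed-strain cultures. Of 31 measured, 17 were higher and 0 lower, with a median of 0.50. Lox, the enzyme that cross-links collagen, read 7.27 and 7.32 against 5.77, 5.55 and 5.57, 1.67 ± 0.12 higher or 3.18-fold (adjusted p = 2.11e-06). Vim, the intermediate filament of mesenchymal cells, read 9.54 and 9.37 against 8.08, 7.95 and 8.23, 1.37 ± 0.13 higher. Col1a2 read 8.26 and 8.28 against 6.69, 7.01 and 7.02, 1.36 ± 0.13 higher. In these 3 genes the 2 sets of cultures lay more than 1.1 apart at their nearest values. Col5a2 was 1.03 ± 0.12 higher and Col3a1 0.92.

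The defining markers of fibroblasts were uneven. Col1a1, the partner chain of Col1a2, read 6.68 and 7.51 against 6.66, 6.90 and 6.83 and was not called (0.30 ± 0.19, adjusted p = 0.327). Without mixed-strain culture 1 it was called. Dcn, a proteoglycan of dermis, differed by 0.22, Lum by 0.07 and the dermal transcription factors Twist1 and Twist2 by 0.02 and 0.25, none of them called. The mean level of the list was 6.64 and 6.69 in the mixed-strain and 6.08 to 6.17 in the FVB cultures, and 13 or 14 of the 31 genes lay under the array's median in the mixed-strain cultures against 18 in each FVB culture. The list had 10 higher genes with the mixed-strain arrays averaged, 11 without either mixed-strain culture and 19 without FVB culture 5. Tagln, an actin-binding protein of smooth muscle and stressed fibroblasts, read 8.87 and 8.89 against 7.09, 7.34 and 7.32 (1.63 ± 0.12). Acta1 (0.98) and Acta2 (0.53 ± 0.11) were also higher, among 5 higher and 0 lower of 16 muscle and adipocyte genes. The Acta2 call was lost with the arrays averaged and without either mixed-strain culture.

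Of 23 macrophage and leukocyte genes, 5 were higher and 0 lower, with a median of 0.12. Lyz1, a lysozyme gene, read 6.44 and 6.14 against 4.76, 4.73 and 4.91 (1.49 ± 0.13, adjusted p = 9.71e-06). Its neighbour Lyz2, the lysozyme of macrophages, read 6.54 and 6.45 against 5.25, 5.02 and 5.40 (1.27 ± 0.13). The 2 genes are near-identical copies and their probe sets can share signal, so that they count as 1 observation at most. The protease gene Ctss was 1.34 ± 0.13 higher. The defining leukocyte and macrophage markers did not follow. Ptprc (0.05), Adgre1 (0.18), Cd68 (-0.02), Itgam (0.06) and C1qa (0.12) were not called, and 18 or 19 of the 23 genes lay under the array's median in the mixed-strain cultures and 22 or 23 in the FVB cultures. Without mixed-strain culture 2 the list had 3 higher genes.

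Of 16 genes of Langerhans cells and MHC class II, 2 were higher, Ctss and H2-Ab1 (0.92 ± 0.16, adjusted p = 0.00208), and 1 lower, Epcam (-0.77 ± 0.13). Cd207, the langerin gene, read 5.09 and 5.12 against 4.73, 4.92 and 5.05 and was not called (0.20 ± 0.13). Of 14 endothelial and 9 mast cell genes none passed the limma test. At an unadjusted p under 0.05 these were 2 and 1, and without FVB culture 5 the test called 3 and 1. On the probe sets used the largest difference in each was Flt1 (0.36 ± 0.12, adjusted p = 0.063) and Cma1 (0.36 ± 0.13, adjusted p = 0.0842). Flt1, a receptor of VEGF, was called higher on both of its other probe sets (0.445 and 0.591), and also on the mean of its probe sets, after repeated quantile normalisation, with centring on junction genes, with the dim filter and with array weights.

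**Figure D2:**
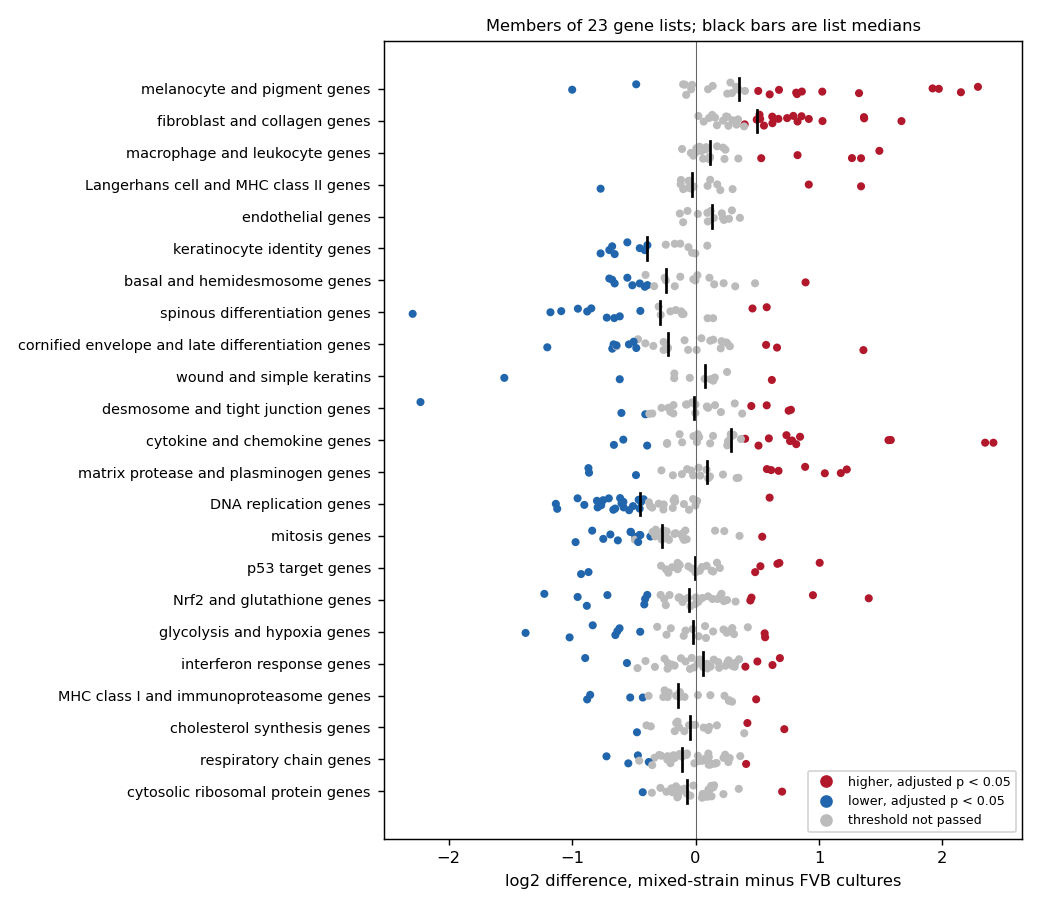
Log2 differences, mixed-strain minus FVB cultures, of the members of 23 gene lists, 1 point per gene, red where called higher, blue where called lower and grey otherwise, with a black bar at each list's median. The medians run from -0.45 for DNA replication to 0.50 for fibroblast and collagen genes.

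Genes of keratinocyte identity and differentiation went the other way. Of 22 spinous differentiation genes, 10 were lower and 2 higher, with a median of -0.29. Krt1, the first keratin of spinous cells, read 6.94 and 7.35 against 9.27, 9.49 and 9.56, 2.29 ± 0.15 lower in the mixed-strain cultures, or 4.89-fold (adjusted p = 7.19e-07). Its partner Krt10 read 7.73 and 7.54 against 8.91, 8.66 and 8.86 (-1.18 ± 0.13, adjusted p = 6.24e-05). Krtdap, a secreted protein of differentiating keratinocytes, read 10.47 and 10.56 against 11.43, 11.66 and 11.73 (-1.09 ± 0.13). In all 3 genes each mixed-strain value lay under each FVB value by at least 0.8.

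Transcription factors of the same programme were lower, Ovol1 (-0.88) and Klf4 (-0.84), and so was Cst6, a protease inhibitor of the cornified layer (-0.95 ± 0.14). Ivl, a precursor of the cornified envelope, read 5.25 and 5.08 against 5.81, 5.61 and 6.05 (-0.66 ± 0.14, adjusted p = 0.00674). It was not called with the mixed-strain arrays averaged (adjusted p = 0.08), with all 12 arrays in 1 fit or without mixed-strain culture 2. The 2 higher genes were Dsc2 (0.58), a desmosomal cadherin, and Ppl (0.46), and neither was called with the arrays averaged. With the mixed-strain arrays averaged 6 spinous genes were lower, and 7 to 10 were in the fits without a culture.

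Late differentiation genes were mixed. Of 29 measured, 7 were lower and 3 higher, with a median of -0.22. Klk7, a protease of the cornified layer, read 9.57 and 9.64 against 10.71, 10.85 and 10.85 (-1.20 ± 0.12, adjusted p = 2.63e-05). Sprr2k, of the small proline-rich proteins, read 8.004 and 7.96 against 6.47, 6.55 and 6.85 (1.36 ± 0.13). Lor, the main protein of the cornified envelope, read 7.42 and 7.52 against 7.43, 7.35 and 7.47, and its difference of 0.05 ± 0.12 was not called. Of its other 2 probe sets 1 was not called (-0.019) and 1 was lower (-0.706 ± 0.20, adjusted p = 0.0354). The Sprr2 and Lce families have near-identical copies that can share signal, so that values of a single member are uncertain. With the arrays averaged and without mixed-strain culture 1, 1 gene of the list was lower, Klk7 in both cases, against 2 without mixed-strain culture 2.

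Of the 15 keratinocyte identity genes 8 were lower and 0 higher, with a median of -0.39. Epcam, an adhesion molecule of immature epithelia, read 9.90 and 9.85 against 10.80, 10.47 and 10.66 (-0.77 ± 0.13, adjusted p = 0.00132), and was not called with all 12 arrays in 1 fit. The laminin chain Lamb3 (-0.68 ± 0.14), the cadherin Cdh3 (-0.65 ± 0.12) and the hemidesmosome integrin Itgb4 (-0.55) were also lower. With the mixed-strain arrays averaged 1 gene of these was lower, Epcam. Without mixed-strain culture 1 the count was 2, without mixed-strain culture 2 it was 3, with all 12 arrays in 1 fit it was 2, and centred on the junction genes it was 5. Of 23 basal and hemidesmosome genes, many of them the same, 8 were lower and 1, the integrin Itgb6, was higher (0.89 ± 0.17). There 0 were lower with the arrays averaged by limma, 2 with all 12 arrays in 1 fit, 1 without mixed-strain culture 1, 3 without mixed-strain culture 2 and 5 without FVB culture 4.

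Trp63, the transcription factor that maintains the basal layer, read 8.47 and 8.16 against 9.19, 8.99 and 8.86 on its brightest probe set (-0.70 ± 0.14, adjusted p = 0.00449). Another of its 3 probe sets was higher by 0.57 ± 0.17 (adjusted p = 0.041 over all probe sets) and the remaining one differed by 0.20. The call on the first was lost with the mixed-strain arrays averaged (adjusted p = 0.0501) and without mixed-strain culture 2. The gene therefore had no single direction on this array.

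Among keratins of wounded and simple epithelia, Krt6b was lower and its paralogue Krt6a was not. Krt6b read 8.10 and 8.09 against 9.65, 9.61 and 9.66 (-1.55 ± 0.11, adjusted p = 2.26e-06). Krt6a read 12.75 and 12.70 against 12.52, 12.73 and 12.70 (0.07 ± 0.12, adjusted p = 0.731). Krt16, induced in wounds beside Krt6, was 0.61 ± 0.13 lower, a call lost with the arrays averaged (adjusted p = 0.0807), with all 12 arrays in 1 fit and without mixed-strain culture 1. Krt17 differed by -0.05. Of the 11 keratins listed 2 were lower and 1, Krt7, was higher (0.62 ± 0.12), and the Krt7 call was lost with the arrays averaged and without either mixed-strain culture.

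**Figure D3:**
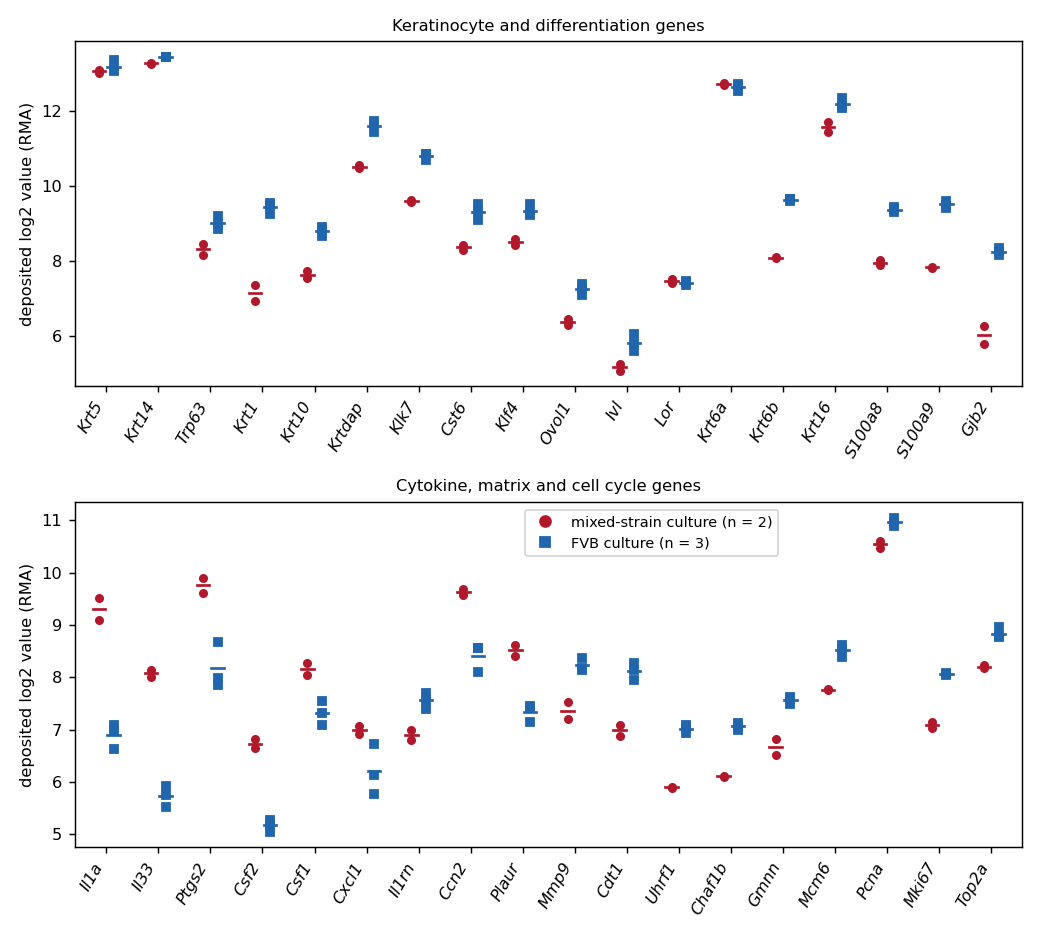
Deposited log2 values of 18 keratinocyte and differentiation genes (upper panel) and 18 cytokine, matrix and cell cycle genes (lower panel) in the 2 mixed-strain cultures (red circles) and the 3 FVB cultures (blue squares), with short bars for the means. Krt1, Krt10, Krt6b, S100a8, S100a9 and Gjb2 are lower in both mixed-strain cultures while Krt5, Krt14, Lor and Krt6a were not called on the probe sets drawn, and Il1a, Il33 and Csf2 are higher while the replication genes from Cdt1 to Pcna are lower.

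Genes of the alarmin and antimicrobial groups changed in both directions. S100a9, which with S100a8 forms calprotectin, read 7.82 and 7.84 against 9.62, 9.42 and 9.50 (-1.68 ± 0.12, adjusted p = 1.75e-06). S100a8 read 8.02 and 7.90 against 9.45, 9.38 and 9.30 (-1.42 ± 0.12). Stfa3, a cysteine protease inhibitor of the stefin A family, whose members share sequence, was 1.38 ± 0.12 lower, and was not called with all 12 arrays in 1 fit. Of 24 genes in this list 5 were higher and 5 lower. Gjb2, connexin 26 of the gap junctions, read 5.79 and 6.26 against 8.17, 8.34 and 8.26 (-2.23 ± 0.14). The rest of the 26 desmosome and tight junction genes had 4 higher and 2 lower calls, with Cldn4 at 0.77 ± 0.12, and a list median of -0.01. With the arrays averaged the whole list had 1 higher and 1 lower gene, and it had the same counts without mixed-strain culture 1 or FVB culture 4.

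Cytokine genes were higher in the mixed-strain cultures. Of 31 measured, 12 were higher and 3 lower, with a median of 0.29. Il1a, the interleukin that keratinocytes store and release on injury, read 9.51 and 9.10 against 6.63, 6.97 and 7.08, 2.41 ± 0.16 higher or 5.33-fold (adjusted p = 9.39e-07). Il33, a nuclear alarmin of epithelial and stromal cells, read 8.144 and 7.9998 against 5.75, 5.92 and 5.51, 2.35 ± 0.14 higher or 5.08-fold. Csf2, the granulocyte and macrophage growth factor, read 6.82 and 6.64 against 5.28, 5.05 and 5.17 (1.56 ± 0.12). For Il1a and Il33 the sets of cultures were separated by about as much as for the pigment enzymes.

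Csf1 (0.85), Il24 (0.82), the neutrophil chemokine Cxcl1 (0.78), Csf3 (0.77) and Lif (0.74) were also higher. Il1rn, the antagonist of the interleukin 1 receptor, was 0.66 lower, while Il1b (-0.11), Il6 (0.02) and Tnf (0.26) were not called. Ptgs2, the inducible cyclooxygenase, was 1.58 ± 0.20 higher on the probe set used (adjusted p = 0.000232), and 0.44 on its other probe set, which was not called (adjusted p = 0.0632). The list had 7 higher genes with the mixed-strain arrays averaged and without either mixed-strain culture.

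Of 24 genes of matrix remodelling, 7 were higher and 3 lower, with a median of 0.10. Ccn2, a matricellular protein and target of TGF-beta and YAP, read 9.57 and 9.69 against 8.56, 8.56 and 8.10 (1.23 ± 0.15, adjusted p = 0.000172). Plaur, the urokinase receptor, read 8.63 and 8.41 against 7.43, 7.45 and 7.15 (1.18 ± 0.13). Timp1, an inhibitor of matrix proteases, was 1.05 ± 0.12 higher and Ccn1 0.89 ± 0.12. Mmp9 and Mmp13, proteases of collagen and gelatin, were lower (-0.86 and -0.87). Mesenchymal genes given above were also called higher more often than lower, and any link to these values was not tested.

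Genes of DNA replication were lower in the mixed-strain cultures. Of 37 measured, 21 were lower and 1 higher, with a median of -0.45. Cdt1, which loads the replicative helicase, read 6.88 and 7.09 against 8.27, 8.14 and 7.95 (-1.13 ± 0.13, adjusted p = 0.000121). Uhrf1, which keeps DNA methylation through replication, read 5.88 and 5.91 against 6.93, 7.03 and 7.08 (-1.12 ± 0.12, adjusted p = 4.26e-05). The chromatin assembly factor Chaf1b (-0.96) and Gmnn, the inhibitor of Cdt1 (-0.90 ± 0.13), were lower too. Helicase subunits called lower on the probe sets used were Mcm2 (-0.58), Mcm4 (-0.45), Mcm5 (-0.65), Mcm6 (-0.75) and Mcm7 (-0.61). Mcm2 and Mcm4 were not called on their other probe set, and Mcm7 was not called on 1 of its 4. Mcm3 was not called on the probe set used (-0.37), and of its 5 probe sets 2 were lower and 1 higher. Rrm1, a subunit of ribonucleotide reductase, was the higher gene (0.60), and its other probe set differed by -0.183 and was not called. On the mean of all probe sets 0 genes of the list were higher and 21 lower by limma. The lower genes were 9 with the mixed-strain arrays averaged, 7 without mixed-strain culture 1 and 11 without mixed-strain culture 2.

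Of 41 mitosis genes, 12 were lower and 1 higher, with a median of -0.27. Mki67, the standard marker of cycling cells, read 7.15 and 7.03 against 8.05, 8.05 and 8.09 (-0.97 ± 0.12, adjusted p = 0.000135). Ndc80, of the kinetochore, read 5.38 and 5.31 against 6.24, 6.04 and 6.27 (-0.84 ± 0.12), and Cenph was 0.75 ± 0.13 lower. Top2a (-0.63) and Cdk1 (-0.49) were called, and Aurka (-0.10), Plk1 (-0.32) and Ccnb2 (-0.25) were not. Lower genes numbered 4 with the mixed-strain arrays averaged and without either mixed-strain culture, 8 without FVB culture 3 or 4 and 19 without FVB culture 5. The mean level of the replication list was 6.88 in both mixed-strain cultures and 7.29 to 7.36 in the FVB cultures, and that of the mitosis list 6.83 and 6.78 against 7.07 to 7.12.

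Growth factor and signalling genes changed one by one. Igfbp2, a binding protein of insulin-like growth factors, read 8.28 and 8.38 against 9.97, 10.004 and 10.22 (-1.74 ± 0.12, adjusted p = 1.98e-06). Pdgfa, a growth factor for dermal cells, was 1.26 ± 0.13 lower and Dusp6, a phosphatase induced by ERK signalling, 0.93 ± 0.12 lower. Of 27 genes of EGF receptor and growth factor signalling 4 were higher and 5 lower. Egr2 and Egr1, immediate early factors, were lower (-1.59 ± 0.13 and -0.89 ± 0.12), among 1 higher and 5 lower of 25 such genes, with Ier3 the higher one (0.77), and 2 were lower with the arrays averaged.

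Of 51 genes of Notch, Wnt, hedgehog and TGF-beta signalling, 5 were higher and 10 lower, with a median of -0.07. Tgfbi, a matrix protein named for its induction by TGF-beta, read 7.67 and 7.61 against 9.56, 9.44 and 9.51, and all 4 of its probe sets were called lower. Notch2 was 1.08 ± 0.17 lower on the probe set used, a call lost with all 12 arrays in 1 fit, and differed by 0.119 on its other one, which was not called. Id1, a target of BMP signalling, was 1.03 ± 0.13 lower. Inhbb, a subunit of activin B, was 1.06 ± 0.12 higher on the probe set used and 0.21 on its other one, which was not called. With the arrays averaged the list had 2 higher and 5 lower genes, and without mixed-strain culture 1 the same counts. Sox9 (-0.73 ± 0.14) and Gata3 (-1.003 ± 0.13), factors of hair follicle lineages, were lower among 1 higher and 4 lower of 25 hair and inner root sheath genes, which were 0 and 2 by limma with the arrays averaged or without either mixed-strain culture.

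Genes of stress responses and metabolism changed in both directions. Mdm2, a target and inhibitor of p53, read 9.25 and 9.28 against 8.40, 8.16 and 8.22 (1.01 ± 0.12, adjusted p = 0.000156), while the p53 targets Gadd45a (-0.93 ± 0.12) and Plk3 (-0.87 ± 0.12) were lower, the latter not called with all 12 arrays in 1 fit. Of 25 p53 targets 5 were higher and 2 lower, and 2 and 2 with the arrays averaged. Gsto1, a glutathione transferase, was 1.40 ± 0.12 higher, and Mt1, a metallothionein, 1.22 ± 0.12 lower, among 4 higher and 7 lower of 34 Nrf2 and glutathione genes, which were 2 and 4 with the arrays averaged or without either mixed-strain culture. Chac1, a glutathione-degrading enzyme induced by Atf4, was 1.25 ± 0.13 lower, and Atf4 itself was 0.56 ± 0.12 lower, a call lost with the arrays averaged and without either mixed-strain culture. Heat shock and unfolded protein genes numbered 3 higher and 6 lower of 32, but 1 and 1 with the arrays averaged or without either mixed-strain culture.

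Of 25 glycolysis and hypoxia genes 2 were higher and 7 lower. Car12, a carbonic anhydrase induced in low oxygen (-1.38 ± 0.14), Pfkp, a phosphofructokinase (-1.02 ± 0.11), and the glucose transporter Slc2a1 (-0.83 ± 0.12) were the lowest, Slc2a1 not called with all 12 arrays in 1 fit. With the arrays averaged 0 were higher and 3 lower by limma. The 43 respiratory chain genes had 1 higher and 4 lower calls, with Ndufa4 at -0.72 ± 0.12, and the 35 ribosomal protein genes 1 of each, Rpl14 (0.70) and Rpl12 (-0.43). Rpl14 was not called with all 12 arrays in 1 fit, and Rpl12 not with the arrays averaged or in 3 of the 5 fits without a culture. Without either mixed-strain culture the respiratory list had 0 higher and 1 lower call by limma, and without FVB culture 5 it had 3 and 8. Among 18 genes of cholesterol synthesis 2 were higher, Hsd17b7 (0.72) and Fdps (0.42), and 1 lower, Pmvk (-0.47). Fdps and Pmvk were not called with the arrays averaged (adjusted p = 0.2402 and 0.1792), with all 12 arrays in 1 fit or in 3 of the 5 fits without a culture, and the other probe set of Fdps differed by -0.042. Among 25 barrier lipid genes 2 were higher and 2 lower, with Scd2 at 0.76 ± 0.13 and Elovl7 at -0.67 ± 0.12. All 3 probe sets of Scd2 were called higher, by 0.762 to 2.942. With the arrays averaged 1 gene of this list was higher and 1 lower by limma. Shares of called members in the ribosomal and respiratory lists lay under the 15.0% of all genes, and those in the cholesterol and barrier lipid lists lay near it.

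Of 40 interferon response genes 4 were higher and 2 lower, with a median of 0.06, which as a share is that of all genes (15.0%). The counts were 1 and 1 with the arrays averaged or without either mixed-strain culture, and 9 and 5 without FVB culture 5. Bst2 (0.68 ± 0.12) was the highest and Ifi204 (-0.89 ± 0.16) the lowest. Of 25 imprinted genes 4 were higher and 2 lower, against 2 and 1 with the arrays averaged and 7 and 2 without FVB culture 5. Grb10, a growth-restraining adaptor, read 7.08 and 6.996 against 5.89, 5.96 and 6.13 (1.05 ± 0.12), and Mest was 0.82 ± 0.13 higher. Plagl1, a zinc finger factor, was 0.67 ± 0.14 lower, a call lost without mixed-strain culture 1. Of 24 Hox genes 1, Hoxb2, was higher (0.42 ± 0.12), and it was not called with the arrays averaged, with all 12 arrays in 1 fit, or without FVB culture 3 or either mixed-strain culture.

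At genes of the major histocompatibility complex, which differ in sequence between strains, probe sets of 1 gene disagreed. H2-D1 has 9 probe sets on this array, of which 3 were higher, by 3.15 ± 0.13, 3.17 ± 0.13 and 2.22 ± 0.12, and 4 were lower (-0.81 to -1.08). One of the higher ones read 8.60 and 8.82 in the mixed-strain and 5.62, 5.63 and 5.43 in the FVB cultures. The brightest one read 10.001 and 10.232 against 10.86, 11.21 and 10.91. H2-K1 has 4 probe sets, of which 2 were lower and 2 not called. On their mean over probe sets H2-D1 was higher by 0.515 (adjusted p = 0.0124), against -0.88 ± 0.14 on the brightest. B2m, the invariant partner chain, differed by 0.12 and was not called. The direction of H2-D1 thus turned with the probe set, and its call is no statement about the level of its RNA.

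**Figure D4:**
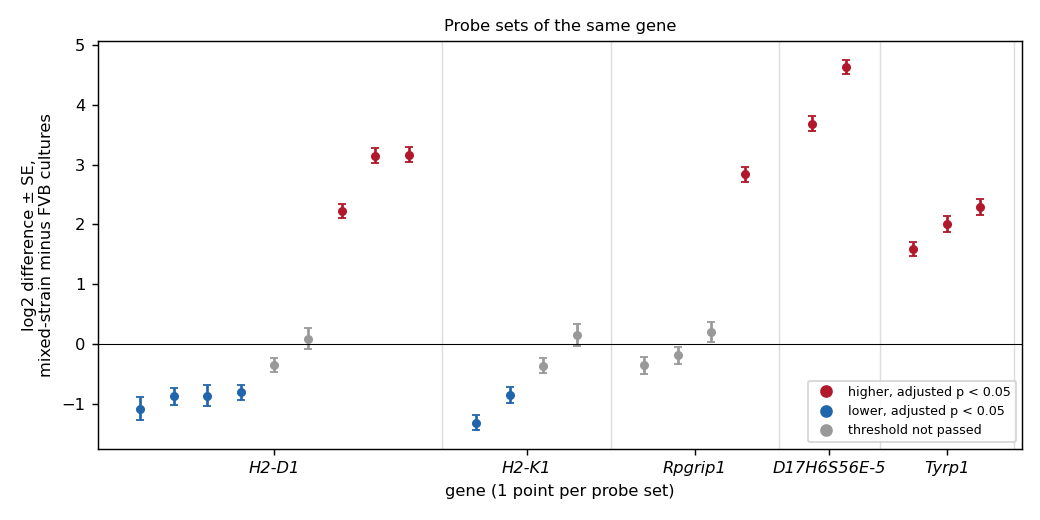
Log2 differences, mixed-strain minus FVB cultures, with their SE for every probe set of 5 genes, red where called higher, blue where called lower and grey otherwise. H2-D1 has probe sets from -1.08 to 3.17, Rpgrip1 has 1 of 4 called, and all probe sets of D17H6S56E-5 and Tyrp1 are higher.

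The same check was made for the other genes. D17H6S56E-5 was higher on both of its probe sets, by 3.69 and 4.64. Rpgrip1 was higher on 1 of 4, reading 8.07 and 8.16 against 5.12, 5.31 and 5.42, while the other 3 differed by -0.36 to 0.20 and were not called. Tyrp1 was higher on 3 of 3 probe sets, Vim on 3 of 3, Tyr on 2 of 3 and Lox on 2 of 3. Of 1863 called genes 908 had other probe sets, and in 352 of those (38.8%) another was called in the same direction, against 32 with another called the opposite way. Of the 71 such genes that differed at least 2-fold the figure was 51 (71.8%), with 0 opposite. Over all probe sets 3085 of 20380 were called, which is 15.1%. Genes named in the text and called on 1 probe set while their others were not called also include Acta2, Atf4, Col3a1, Dsc2, Elovl7, Grb10, Kdm5d, Lif, Mlph, Mmp9, Mt1, Nnt, Pfkp, Plagl1 and Top2a. Of these Acta2 (-0.142), Col3a1 (-0.018) and Pfkp (0.019) had another probe set of the opposite sign. Whether sequence differences between the strains under the probes contribute was not tested.

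Of 31 genes with known alleles that differ between mouse strains, 5 were higher and 4 lower, and 2 and 2 with the arrays averaged or without either mixed-strain culture. Of all genes tested 15.0% were called in either direction. Tyr, Tyrp1 and Myo5a were given above. Nnt, the mitochondrial transhydrogenase that is partly deleted in some C57 substrains, read 6.62 and 6.75 against 7.27, 7.27 and 7.15 (-0.54 ± 0.12, adjusted p = 0.00716). Its call was lost with the arrays averaged (adjusted p = 0.107), with all 12 arrays in 1 fit and without either mixed-strain culture. Ahr, the dioxin receptor, was 0.85 ± 0.14 lower on the probe set used and 0.40 higher, not called, on its other one. Glo1, a glyoxalase with a duplication in some strains, was 0.42 ± 0.12 higher (adjusted p = 0.0344) on 1 of 3 probe sets, and this was lost with the arrays averaged, with all 12 arrays in 1 fit and in 4 of the 5 fits without a culture. Alad, an enzyme of haem synthesis with a copy number difference between strains, was 0.47 lower.

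Each culture pooled pups whose sex is not given in the labels. Xist, the RNA of the inactive X chromosome, read 7.30 and 7.22 against 7.78, 8.11 and 7.90 (-0.67 ± 0.13, adjusted p = 0.00346). The Y-linked genes Uty (0.46 ± 0.14), Eif2s3y (0.41 ± 0.13) and Kdm5d (0.40 ± 0.12) were higher. All cultures had readings of both kinds, and none of the 4 genes was called by limma with the mixed-strain arrays averaged, where their adjusted p ranged from 0.0595 for Xist to 0.308 for Eif2s3y. The share of female pups in each pool was not analysed here.

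Skin shares no array with the cultures, and its mixed-strain samples were from mice aged 30 days and its FVB samples from newborns. There 2108 genes were called (17.0%), 792 higher (6.39%) and 1316 lower (10.6%) in the older, mixed-strain skin, and strain and age cannot be told apart in it. Of the 1863 genes called in culture 1241 (66.6%) had the same sign in skin, beside 59.3% of all genes tested. For lower genes the share was 69.7% and for higher genes 60.7%. Of the 158 genes at least 2-fold apart 99 (62.7%) had the same sign, with 51 called in skin in the same direction and 31 in the opposite one. Of all genes tested, 1291 were called in skin with the same sign as in culture and 817 with the opposite sign.

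**Figure D5:**
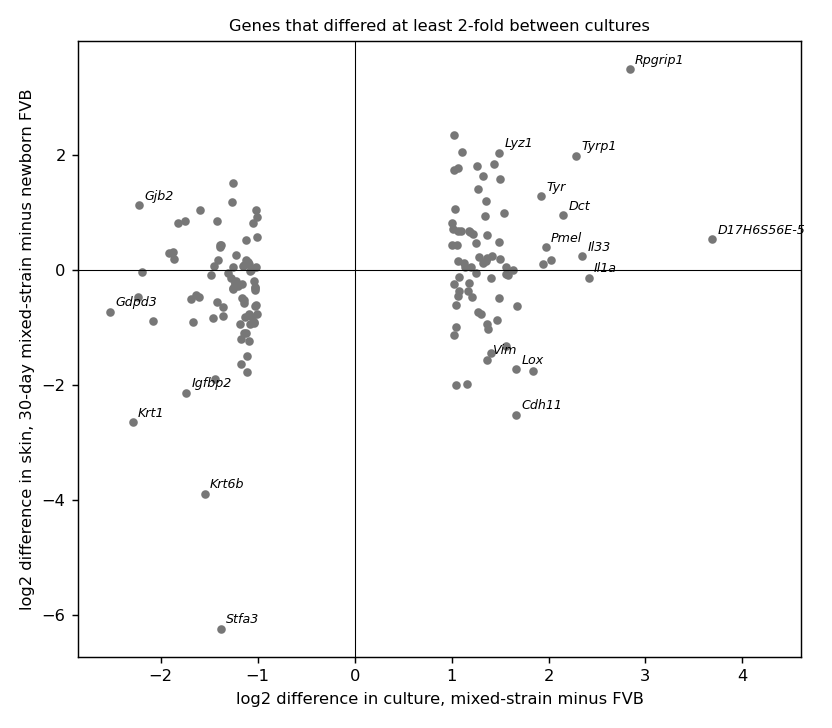
Log2 difference in culture, mixed-strain minus FVB (x axis), against log2 difference in skin, 30-day mixed-strain minus newborn FVB (y axis), for the 158 genes called at least 2-fold apart in culture. Rpgrip1, Tyrp1 and Tyr are higher in both, Krt1, Krt6b and Stfa3 lower in both, and Cdh11, Vim and Lox are higher in culture and lower in skin.

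At least 2-fold apart, called and without overlap in both, and of the same sign, were 27 genes, 15 higher and 12 lower. Genes 2-fold apart with opposite signs, such as Lox and Vim, are not in this count and were not counted by the same rule. The 27 are thus no measure of how far skin and culture agree. Among the 27, Rpgrip1 was 3.49 higher in skin, with 7.92 to 9.19 in the 5 mixed-strain samples and 5.06 and 4.94 in the FVB samples. Tyrp1 was 1.99 and Tyr 1.28 higher in skin, and Oca2 1.74. Dct was 0.96 higher and Pmel 0.40, the latter not called (adjusted p = 0.1). Lyz1 (2.04) and Lyz2 (1.80) were higher too. Krt1 (-2.65), Krt10 (-1.21), Krt6b (-3.90), Krtdap (-1.23), Stfa3 (-6.25) and Igfbp2 (-2.14) were lower in both. D17H6S56E-5 was 3.69 higher in culture but only 0.54 higher in skin, where it was not called (adjusted p = 0.15).

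Of the 31 fibroblast and collagen genes 1 was called higher and 20 lower in the older skin. Of the 17 higher in culture 12 were lower in skin, 1 was higher and 4 were not called. Lox was 1.73 lower, Vim 1.56 lower and Col5a2 1.13 lower in the older skin, while Col1a2 was 0.62 higher. Gjb2 was 1.13 higher in skin, and S100a8 0.85 higher. Il1a (-0.13) and Il33 (0.24) were not called in skin. The replication genes Cdt1 (-0.83), Uhrf1 (-1.09), Chaf1b (-0.89) and Gmnn (-0.91) were lower in skin as in culture.

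Called genes lay beside each other in the genome somewhat more often than genes in general. In the order of RefSeq genes measured here (GRCm38.p6), 94 of 639 higher genes (14.7%) had a higher gene as a neighbour, beside 9.95% of all 12377 genes placed. For lower genes it was 290 of 1224 (23.7%), beside 18.8%. These shares carry no test. Runs of 3 or more numbered 24, of which 6 were higher and 18 lower. Examples are Lyz2, Lyz1 and Mdm2, Gpc6, Dct and Tgds among the higher, and the kallikreins Klk8, Klk7 and Klk6 among the lower, whose copies are related in sequence.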

How the data were processed

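The authors deposited 1 table of log2 values for 12 arrays, made by RMA per the submitters' processing notes. RMA corrects background, normalises by quantiles and summarises each probe set, and which version was run, and how, is not given in the sources used here. No detection call comes with these values, and precision is limited by how few arrays there are. Of 22690 probe sets, 64 controls were left out, and 20380 had 1 gene symbol in the platform annotation, 691 several and 1555 none. By gene identifier 20351 of them matched the RefSeq table (GRCm38.p6). Each of 12393 genes was read on 1 probe set, the brightest on average across the 12 arrays.

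Groups came from the strain labels. A linear model per gene with moderated variances (limma 3.58.1, R 4.3.3, two-sided) fitted 1 mean per strain to the 5 cultures, with Benjamini-Hochberg adjustment over 12393 genes and a threshold of 0.05. The 7 skin arrays had a fit of their own, and all probe sets another, adjusted over 20380. The script was tested on simulated data. Errors of differences are standard errors. The culture arrays' medians lay between 5.86 and 5.94.

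Genes were described in 38 lists, with 907 of 1084 symbols measured. The members, lists and tests were chosen with earlier results of these data known. Named were the 10 largest called differences in each direction without overlap of the cultures, from each list the up to 4 largest called and the largest that missed the threshold, and a set of fixed genes, of which Mlana and Ddx3y were not measured. Further genes in the text, among them Oca2, Slc45a2, Col3a1, Klf4, Csf1, Mmp9, the Mcm genes, marker genes given as not called, and Cdh11, were named after their values were seen. Alternatives covered the arrays fitted, scaling, filter, probe set, threshold, variance model, array weights and each culture left out, and averaging the mixed-strain arrays, which was added after seeing the data.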

Additional observations from a re-analysis of the deposited data

How the results depend on the processing

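The count of 1863 called genes (639 higher, 1224 lower) moved by more than 1.5 times under these alternatives. With all 12 arrays in 1 fit it was 1219, with 394 higher and 825 lower. At an adjusted p under 0.01 it was 906 (298 higher, 608 lower), and at 0.05 with at least 2-fold asked as well 158 (77 higher, 81 lower). With array weights it was 3149 (1305 higher, 1844 lower). With the mixed-strain arrays averaged to 1 sample, chosen after seeing the data, it was 559 (201 higher, 358 lower). Leaving out each culture in turn gave 546 to 3004 genes, 200 to 1305 of them higher and 346 to 1699 lower, where a lone mixed-strain array is taken to vary like the FVB cultures. Repeated quantile normalisation (1880), centring on medians (1890) or junction genes (1764), a filter on the dimmest 40% (1864 of 7436), other probe set rules (1852 and 1921) and an intensity trend (1972) stayed within 1.5 times. So did leaving out FVB culture 3 (1438) or FVB culture 4 (1472). On the mean of all probe sets Trp63 turned to 0.023 (adjusted p = 0.936) and H2-D1 to 0.515 (adjusted p = 0.0124), by their other probe sets. Of 141 named called genes 100 were also called with the mixed-strain arrays averaged, and 93 in all 5 fits without a culture. The named genes were picked mostly for large differences, so that these counts do not stand for all 1863 called genes. No paired analysis was possible because the mixed-strain cultures are numbered 1 and 2 and the FVB cultures 3 to 5. The cause of these shifts was not tested, and 5 arrays with no detection call limit what dim genes can show.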
